A study of Mus musculus with 7 samples.

Results

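To describe how the genes that make and sense prostaglandins and leukotrienes were expressed after myocardial infarction (MI), 10 genes were read from a table of 56980 mouse genes with FPKM values, that is, fragments relative to gene length and library size. They were the 2 cyclooxygenases Ptgs1 and Ptgs2, the prostanoid synthases Ptges, Ptgis and Ptgds, the leukotriene and lipoxygenase genes Alox5, Alox5ap, Alox15 and Ltc4s, and the prostaglandin E receptor Ptger4, chosen by name. Myocardial tissue came from 7 wild-type male C57BL/6J mice obtained at 8 weeks of age. In the MI group (n = 3) the left coronary artery was tied off and tissue was taken 4 days later, and the control group (n = 4) was sham-operated. The study calls the tissue of the MI mice ischemic but does not say how it was taken from the heart. Each mouse gave 1 library.

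Prostaglandins and leukotrienes are lipid signals made from arachidonic acid, which phospholipases cut from membranes. The cyclooxygenases turn it into prostaglandin H2, and a terminal synthase then sets the product, prostacyclin from Ptgis, prostaglandin E2 from Ptges and prostaglandin D2 from Ptgds. In the other branch, 5-lipoxygenase (Alox5) with its activating protein (Alox5ap) makes leukotriene A4, and Ltc4s joins this to glutathione to give leukotriene C4. In the heart, prostacyclin is known as a vasodilator that restrains platelets, and leukotrienes are known as products of myeloid cells that attract leukocytes.

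The libraries held 19977714 to 23473543 fragments in the sham mice and 21781014 to 23610871 in the MI mice. MI replicate 2 stood apart from the other MI mice. Across all genes tested, its Pearson's r with the sham mice was at least 0.984, whereas that of MI replicate 1 was at most 0.881 and that of MI replicate 3 at most 0.906. Mitochondrial genes held 28.3% of its fragments, 26.6 to 27.5% of those of the sham mice and 13.6% and 15% of those of MI replicates 1 and 3. The main results are therefore given with and without this mouse. It was set apart by its likeness to the sham mice, so leaving it out favours a difference between the groups. Without it, 57% of all genes tested were higher and 14.7% lower in limma at an adjusted p of 0.05. P-values without this mouse rest on MI replicates 1 and 3 only and are given as a description. No infarct size or other check of the ligation in single mice is given in the sources used here. The extent of infarction in the sampled tissue of this mouse was thus not tested, and every MI mean with n = 3 includes it. Cardiomyocyte markers were abundant in every mouse, with a summed FPKM of 12400 to 13500 in the sham mice and 12500 to 16900 in the MI mice. The higher sums in MI replicates 1 and 3 came from Nppa, an atrial natriuretic peptide that is also raised in stressed ventricle. Without Nppa, the other 7 markers summed to 12248 to 13408 in the sham mice and to 8381, 12322 and 8786 in MI replicates 1 to 3. All 7 had estimates below 0 in limma, 4 of them at an unadjusted p under 0.05, where 9.85% of all genes tested were lower.

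The sequences before the start sites are shown for Ptgs1 and Ptgs2, because the pair makes the same product at different levels, for Ptges, which had a low level in every sham mouse, and for Alox5, whose 3 MI mice all lay below the sham mice. The 250 bases before the RefSeq start (GRCm38.p6) are written 5′ to 3′ on the gene's strand, and capitals mark GGGCGG (the core of a GC box) and TTGCGCAA (a palindrome that C/EBP factors can bind).
Ptgs1 (chr2:36230176-36230425, + strand): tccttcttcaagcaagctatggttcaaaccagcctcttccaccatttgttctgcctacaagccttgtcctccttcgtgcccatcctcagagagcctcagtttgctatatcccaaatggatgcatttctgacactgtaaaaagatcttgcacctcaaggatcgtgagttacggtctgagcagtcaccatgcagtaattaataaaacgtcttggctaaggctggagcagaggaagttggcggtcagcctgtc
Ptgs2 (chr1:150099781-150100030, + strand): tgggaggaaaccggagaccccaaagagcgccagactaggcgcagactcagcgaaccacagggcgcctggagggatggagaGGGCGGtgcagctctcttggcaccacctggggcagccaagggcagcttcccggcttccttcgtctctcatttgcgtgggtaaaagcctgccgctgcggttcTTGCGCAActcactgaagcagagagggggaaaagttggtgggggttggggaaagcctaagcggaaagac
Ptges (chr2:30903298-30903547, - strand): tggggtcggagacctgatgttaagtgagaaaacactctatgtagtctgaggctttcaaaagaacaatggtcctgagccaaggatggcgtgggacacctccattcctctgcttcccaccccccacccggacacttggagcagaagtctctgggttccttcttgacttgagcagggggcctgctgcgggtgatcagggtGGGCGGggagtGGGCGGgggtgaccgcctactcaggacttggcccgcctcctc
Alox5 (chr6:116461179-116461428, - strand): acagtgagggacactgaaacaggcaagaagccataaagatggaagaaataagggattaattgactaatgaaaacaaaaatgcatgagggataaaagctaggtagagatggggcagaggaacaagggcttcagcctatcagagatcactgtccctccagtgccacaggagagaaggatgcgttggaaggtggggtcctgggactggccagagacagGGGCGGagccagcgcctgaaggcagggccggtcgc
Sequences were held for 7 of the 10 genes, all but Ptgis, Alox5ap and Alox15. GGGCGG, searched on both strands, was in 4 of the 7 windows (Ptgs2, Ptges, Alox5 and Ptger4) and in 32.7% of all 32851 promoter windows of the same length. TTGCGCAA, which reads the same on both strands, began 69 bases before the Ptgs2 start and was in 0.164% of all windows. TATAAA (the core of a TATA box) was on neither strand of the 7 windows and in 12.4% of all windows. The same held for CGTCA (the core of a cAMP response element), found in 17.8% of all windows, and for CACGTG (an E-box), found in 6.02%. CCAAT, searched on both strands, was in the Ptger4 window and in 33.8% of all windows. The printed matches do not overlap. The windows also differed in composition, with 48% G and C and 5 CpG sites before Ptgs1, and 61.6% G and C and 13 CpG sites before Ptgs2. In GENCODE M21, 183 bases of the Ptgs2 window lie in exons of the antisense gene Ptgs2os, and the Ptges window lies inside the annotated gene, which has transcripts that start farther upstream. A match of letters is a description and not a site of binding.

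In GENCODE M21 (GRCm38), the cyclooxygenases lie apart, with Ptgs1 (ENSMUSG00000047250) at chr2:36230426-36252272 on the + strand and Ptgs2 (ENSMUSG00000032487) at chr1:150100031-150108227 on the + strand. All 3 prostanoid synthases are on chromosome 2 with Ptgs1, Ptges (ENSMUSG00000050737) at chr2:30889471-30929863 on the - strand, Ptgis (ENSMUSG00000017969) at chr2:167191805-167240604 on the - strand and Ptgds (ENSMUSG00000015090) at chr2:25466709-25470046 on the - strand. The leukotriene and lipoxygenase genes are on 3 chromosomes, Alox5 (ENSMUSG00000025701) at chr6:116410077-116461178 on the - strand, Alox5ap (ENSMUSG00000060063) at chr5:149264767-149288153 on the + strand, Alox15 (ENSMUSG00000018924) at chr11:70344152-70352031 on the - strand and Ltc4s (ENSMUSG00000020377) at chr11:50236461-50238616 on the - strand. The receptor is Ptger4 (ENSMUSG00000039942) at chr15:5206661-5244187 on the - strand. FPKM was given for whole genes, so no exon or transcript is told apart.

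In the sham heart, with the gene lengths behind the deposited FPKM, the 6 most abundant of the 10 genes stood in the same order in all 4 mice. Ptgds, the prostaglandin D2 synthase, was the most abundant by FPKM, at 60.9 to 73.3, and held 80.9 to 82.3% of the summed FPKM of the 10 genes. Ptgis followed at 4.78 to 6.52, then Alox5ap at 2.9 to 3.15, Alox5 at 2.26 to 2.79, Ptgs1 at 1.62 to 2.17 and Ltc4s at 0.793 to 1.55. None of these 6 ranges overlapped its neighbour. The order after Ptgis rested on those lengths. Rescaled to the exon lengths of GENCODE M21, a choice made after the data were seen, Alox5 (5.03) lay above Alox5ap (4.83) in sham replicate 1 and below it in sham replicate 4 (4.08 against 4.94). On that scale Ltc4s, at 2.14 to 4.2, overlapped both Alox5, at 4.08 to 5.03, and Ptgs1, at 2.48 to 3.31, while Ptgds and Ptgis kept their places. Ptger4, at 0.383 to 0.629, lay below them and overlapped Alox15, which in sham replicate 4 (0.389) was above Ptger4 (0.383). Alox15 at 0 to 0.389, Ptges at 0.0486 to 0.184 and Ptgs2 at 0.0665 to 0.224 overlapped one another. In the MI mice, every range overlapped the next one, and by the mean FPKM Ptgs1 and Ltc4s stood before Alox5.

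**Figure D1:**
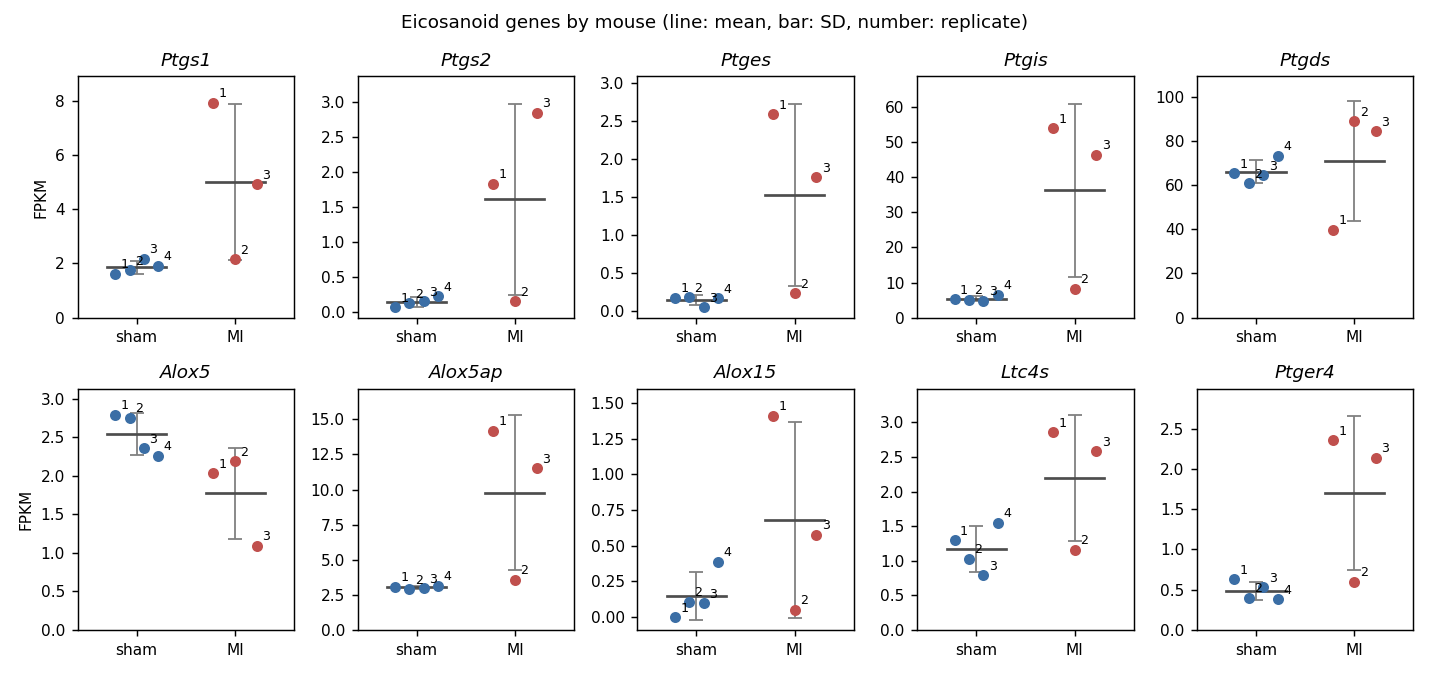
FPKM (vertical axes, a scale for each gene) of the 10 genes in the 4 sham mice and 3 MI mice; points are mice numbered by replicate, lines are means and bars are SD. MI replicate 2 lies near the sham mice in most panels, whereas MI replicates 1 and 3 lie above them for every gene but Ptgds and Alox5.

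The genes were tested in limma on log2(FPKM + 1), MI against sham, over the 11431 genes that reached an FPKM of 1 in 3 or more mice. Of the 10 genes, 6 passed this filter (Ptgs1, Ptgis, Ptgds, Alox5, Alox5ap and Ltc4s). Ptgs2, Ptges, Alox15 and Ptger4 reached an FPKM of 1 only in MI replicates 1 and 3 (Alox15 only in MI replicate 1), so their values come from the fit without a filter over 30504 genes. With all 7 mice, 0 of the 6 genes passed a Benjamini-Hochberg adjusted p of 0.05 in either direction, where the background was 0.0175% of all genes tested higher and 0.00875% lower. At an unadjusted p under 0.05, 4 of the 6 were higher in MI (Ptgs1, Ptgis, Alox5ap and Ltc4s) against a background of 29.5%, and 0 were lower against 9.85%. These counts depended on single MI mice. Without MI replicate 3, 2 were higher (Ptgis and Alox5ap) against 8.33% of all genes, and 0 were lower against 4.68%. Without MI replicate 1, 4 were higher (Ptgds in place of Ltc4s) against 9.18%, and 1, Alox5, was lower against 4.93%. They also depended on scaling. With quantile normalization, 3 of the 6 were higher against 16.7% of all genes, and 1 was lower against 21%. With median log-ratio scaling, 3 were higher against 19% and 1 lower against 19.6%. Under both, Ltc4s was no longer among the higher genes (limma adjusted p = 0.242 and 0.173) and Alox5 was the lower one (limma adjusted p = 0.101 and 0.0994). Without a filter, 3 of the other 4 genes were higher at an unadjusted p under 0.05 (background 20.6%) and 0 at an adjusted p of 0.05 (background 0.0656%). This background is all 30504 genes, those that passed the filter included. The median gene tested was 0.21 higher in MI on the log2 scale.

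All MI mice lay above all sham mice for 3 of the 10 genes (Ptges, Ptgis and Alox5ap), 2 of them among the 6 tested, where 16.1% of genes did so. All MI mice lay below all sham mice for 1, Alox5, where 9% of genes did so. The other 6 overlapped. Without MI replicate 2, 4 of the 6 tested genes were higher at an adjusted p of 0.05 in limma, against 57% of all genes tested, and 1 was lower, against 14.7%. In the same fit without a filter, all 4 genes with low values were higher, against 35.8% of all genes, those that passed the filter included.

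The 2 cyclooxygenases both had higher means in the MI mice. Ptgs1, the form known as constitutive, had FPKM values of 1.62, 1.74, 2.17 and 1.92 in sham replicates 1 to 4, and of 7.92, 2.16 and 4.91 in MI replicates 1 to 3. MI replicates 1 and 3 lay above all sham mice, and MI replicate 2 lay just under the highest sham mouse. The mean was 1.86 ± 0.237 (SD, n = 4) in sham and 5 ± 2.88 (SD, n = 3) in MI, a ratio of 2.68. On the log2(FPKM + 1) scale Ptgs1 was 0.95 higher (SE 0.31, limma adjusted p = 0.108), and 0.74 higher than the median gene. Without MI replicate 2 it was 1.35 higher (SE 0.16, limma adjusted p = 0.000326), and without MI replicate 1, in which it was highest, 0.60 higher.

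Ptgs2, the form known as inducible by inflammatory signals, had FPKM values of 0.0665, 0.128, 0.154 and 0.224 in the sham mice, which rested on 7 to 21 fragments. It had 1.83 in MI replicate 1, 0.151 in MI replicate 2 and 2.84 in MI replicate 3, from 187, 16 and 315 fragments. MI replicate 2 thus lay inside the sham range, while the other MI mice were 12.8 and 19.9 times the sham mean. The difference was 1.02 on the log2(FPKM + 1) scale (SE 0.38, limma without a filter, adjusted p = 0.188) and 1.53 without MI replicate 2 (SE 0.14, limma adjusted p = 0.000732). This scale understates the change of genes at such low levels.

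Ptgs2 stayed the smaller of the pair by FPKM in every mouse. It held 3.93, 6.83, 6.64 and 10.5% of the summed FPKM of the pair in sham replicates 1 to 4. It held 18.8% in MI replicate 1, 6.52% in MI replicate 2 and 36.7% in MI replicate 3. The difference between the genes within a mouse, on the log2(FPKM + 1) scale, was -1.32 on average in sham and -1.25 in MI (exact permutation test, two-sided, p = 0.857, and 0.857 after adjustment over 4 pairs of genes). With 3 mice against 4 the smallest p this test can give is 0.0571. The size depended on the pseudocount: with 0.1 in place of 1, the MI mice were 1.05 above sham (exact permutation p = 0.229), and without MI replicate 3 the sign turned to -0.24 (exact permutation p = 0.133, the smallest that 2 mice against 4 can give).

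Among the prostanoid synthases, the prostacyclin synthase Ptgis showed the largest difference of the 6 tested genes. Its FPKM was 5.28, 5.13, 4.78 and 6.52 in the sham mice, and 54.1, 8.19 and 46.5 in MI replicates 1 to 3. Every MI mouse was above every sham mouse, although MI replicate 2 was only 1.51 times the sham mean and MI replicates 1 and 3 were 9.97 and 8.57 times. The mean was 5.43 ± 0.754 (SD, n = 4) in sham and 36.3 ± 24.6 (SD, n = 3) in MI, a ratio of 6.68. Ptgis was 2.17 higher on the log2(FPKM + 1) scale (SE 0.58, limma adjusted p = 0.108, unadjusted p = 0.00665), the 78th largest difference in size of the 11431 genes. The exact permutation test gave p = 0.0571, the smallest it can give. Without MI replicate 2 the difference was 3.00 (SE 0.12, limma adjusted p = 3.92e-06).

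Ptges, the microsomal prostaglandin E synthase known to be induced along with Ptgs2, was close to the limit of detection in sham. It had FPKM values of 0.178, 0.184, 0.0486 and 0.171 in sham replicates 1 to 4, from 6 to 21 fragments, and of 2.59, 0.235 and 1.76 in MI replicates 1 to 3, from 28 to 296 fragments. All MI mice were above all sham mice, MI replicate 2 by a small margin. The ratio of the means was 10.5, and the difference on the log2(FPKM + 1) scale was 1.01 (SE 0.34, limma without a filter, adjusted p = 0.188) with all mice and 1.46 without MI replicate 2 (SE 0.12, limma adjusted p = 0.000615).

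Ptgds, the most abundant of the 10, did not share this pattern. Its FPKM was 65.5, 60.9, 64.4 and 73.3 in the sham mice, 39.8 in MI replicate 1, 88.8 in MI replicate 2 and 84.5 in MI replicate 3. The MI mice lay on both sides of the sham range, with MI replicate 1 below all sham mice and the other MI mice above them. The difference was 0.02 on the log2(FPKM + 1) scale (95% confidence interval -0.62 to 0.66, limma adjusted p = 0.95), 0.22 after rescaling to TPM and -0.25 with scaling by the median log-ratio. The interval leaves room for a change of either sign.

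The balance between Ptgis and Ptgds therefore differed between mice. Ptgis amounted to 8.06, 8.43, 7.43 and 8.89% of the Ptgds FPKM in sham replicates 1 to 4. It amounted to 136% in MI replicate 1, 9.22% in MI replicate 2 and 55% in MI replicate 3, all above the sham mice. The difference within a mouse was -3.39 on average in sham and -1.23 in MI on the log2(FPKM + 1) scale (exact permutation test, two-sided, p = 0.0571, 0.114 after adjustment over 4 pairs). MI was thus 2.15 above sham on this scale, and the size rested on single MI mice, at 1.32 without MI replicate 1 and 3.18 without MI replicate 2.

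**Figure D2:**
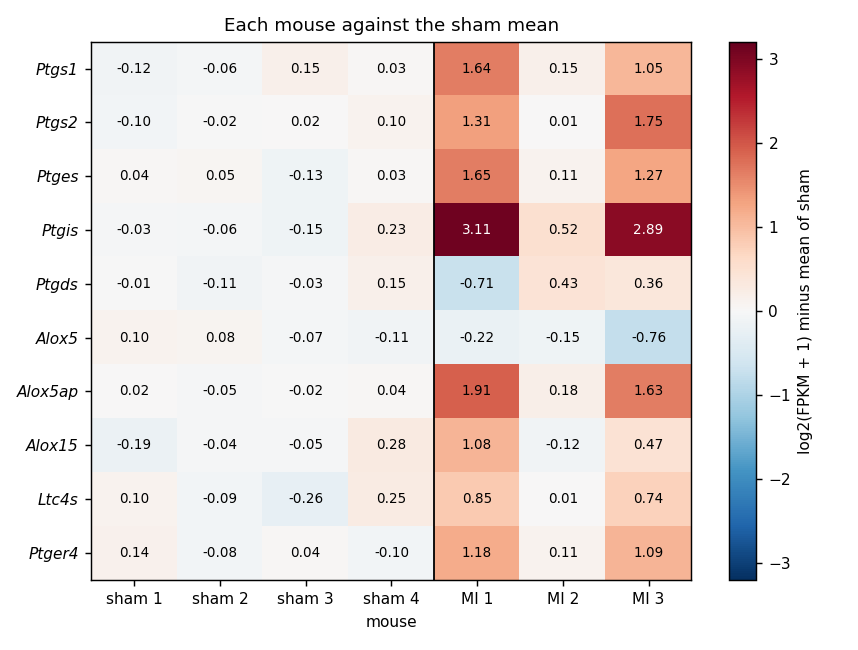
log2(FPKM + 1) of each gene (rows) in each mouse (columns) minus the mean of the 4 sham mice, with red for higher and blue for lower. Ptgis has the largest values, 3.11 in MI replicate 1 and 2.89 in MI replicate 3, and MI replicate 2 stays between -0.15 and 0.52.

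In the leukotriene branch, the estimates of the activating protein and of the lipoxygenase itself had opposite signs. Alox5ap, which presents arachidonic acid to 5-lipoxygenase, had the smallest SD relative to its mean in sham (3.71%), with FPKM values of 3.08, 2.9, 2.96 and 3.15, and values of 14.2, 3.57 and 11.5 in MI replicates 1 to 3. Every MI mouse was above every sham mouse. The mean was 3.02 ± 0.112 (SD, n = 4) in sham and 9.74 ± 5.51 (SD, n = 3) in MI, a ratio of 3.22. The difference was 1.24 on the log2(FPKM + 1) scale (SE 0.38, limma adjusted p = 0.108), 1.03 above the median gene, and 1.77 without MI replicate 2 (SE 0.09, limma adjusted p = 7.93e-06).

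Alox5 had FPKM values of 2.79, 2.75, 2.36 and 2.26 in sham replicates 1 to 4 and of 2.03, 2.19 and 1.09 in MI replicates 1 to 3. Every MI mouse was below every sham mouse, by a small margin for MI replicates 1 and 2. The mean was 2.54 ± 0.266 (SD, n = 4) in sham and 1.77 ± 0.597 (SD, n = 3) in MI. The difference was -0.38 on the log2(FPKM + 1) scale (95% confidence interval -0.75 to 0.00, limma adjusted p = 0.128) and -0.58 relative to the median gene. It was -0.49 without MI replicate 2 (limma adjusted p = 0.0228, and 0.066 without a filter) and -0.18 without MI replicate 3 (limma adjusted p = 0.356). After rescaling to TPM the difference was -0.31 and the groups overlapped.

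The FPKM of Alox5ap was 1.11, 1.06, 1.26 and 1.39 times that of Alox5 in the sham mice, and 6.96, 1.63 and 10.6 times in MI replicates 1 to 3. All MI mice were above all sham mice. On the log2(FPKM + 1) scale the difference within a mouse was 0.19 on average in sham and 1.81 in MI (exact permutation test, two-sided, p = 0.0571, 0.114 after adjustment over 4 pairs).

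Ltc4s, the leukotriene C4 synthase, had FPKM values of 1.3, 1.03, 0.793 and 1.55 in sham and of 2.86, 1.16 and 2.58 in MI replicates 1 to 3. MI replicate 2 lay inside the sham range and the other MI mice above it. The difference was 0.53 on the log2(FPKM + 1) scale (SE 0.22, limma adjusted p = 0.125), 0.32 above the median gene, and 0.79 without MI replicate 2 (limma adjusted p = 0.0021). Within a mouse, Ltc4s minus Alox5ap was -0.90 on average in sham and -1.62 in MI on the log2(FPKM + 1) scale, and the groups overlapped (exact permutation test, two-sided, p = 0.114, 0.152 after adjustment over 4 pairs).

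Alox15, a lipoxygenase that in the mouse makes mainly the 12-hydroperoxide of arachidonic acid and is known from macrophages and eosinophils, had the largest SD relative to its mean in sham (112%). It had FPKM values of 0, 0.108, 0.0994 and 0.389 in the sham mice and of 1.41, 0.0515 and 0.576 in MI replicates 1 to 3. The 0 in sham replicate 1 is a count of 0 fragments, which allows up to 3 fragments or an FPKM of 0.052, by counting error only. MI replicate 2, with 3 fragments, lay inside the sham range, and MI replicates 1 and 3 lay above it with 79 and 35 fragments. The difference was 0.48 on the log2(FPKM + 1) scale (SE 0.27, limma without a filter, adjusted p = 0.296) and 0.77 without MI replicate 2 (SE 0.21, limma adjusted p = 0.0342).

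**Figure D3:**
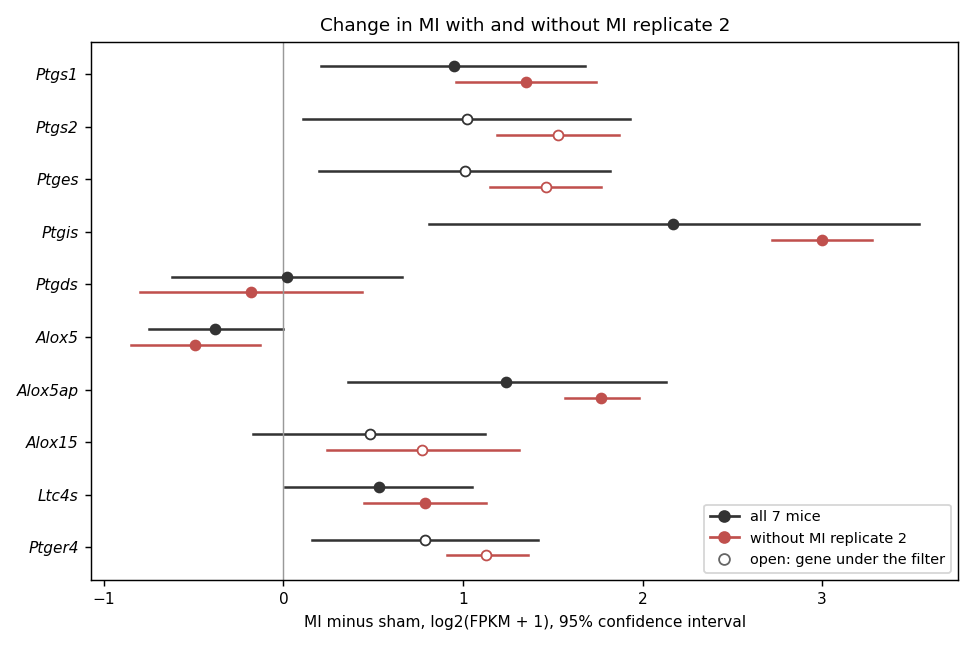
MI minus sham on the log2(FPKM + 1) scale (horizontal axis) for the 10 genes, with points for the limma estimates and lines for their 95% confidence intervals, from all 7 mice (black) and without MI replicate 2 (red); open points are genes under the filter. Without MI replicate 2 the estimates lie farther from 0, that of Ptgds turns from 0.02 to -0.18, and the interval of Ptgis runs from 2.72 to 3.28 in place of 0.81 to 3.54.

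**Figure D4:**
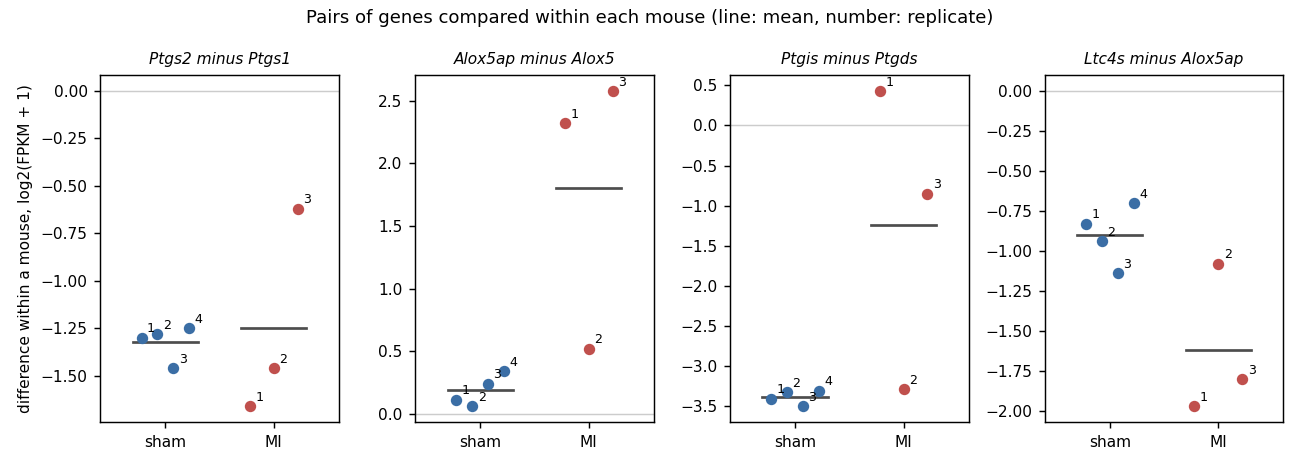
Difference between 2 genes within each mouse on the log2(FPKM + 1) scale (vertical axes), with points for mice numbered by replicate and lines for group means. Alox5ap minus Alox5 and Ptgis minus Ptgds separate the groups, with MI replicate 2 next to the sham mice in both.

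Ptger4, a receptor for prostaglandin E2 known as EP4, had FPKM values of 0.629, 0.401, 0.528 and 0.383 in sham replicates 1 to 4 and of 2.36, 0.6 and 2.14 in MI replicates 1 to 3. MI replicate 2 fell inside the sham range, just under its highest mouse, and the other MI mice were 4.87 and 4.42 times the sham mean. The difference was 0.79 on the log2(FPKM + 1) scale (SE 0.26, limma without a filter, adjusted p = 0.188) and 1.13 without MI replicate 2 (SE 0.09, limma adjusted p = 0.000524). In GENCODE M21, Ptger4 shares 1097 exon bases with genes on the opposite strand (Ttc33 and the pseudogene Gm15937). Whether counting used the strand is not given in the sources used here, so reads of such partners cannot be told apart. The same holds for 268 bases of Ltc4s, 189 of Alox5ap, 156 of Ptgis and 148 of Ptgs1.

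To place these genes in their pathway, 52 further genes in 5 lists were read, from phospholipases to receptors. Of these, 19 passed the filter, 0 passed an adjusted p of 0.05 in limma, 4 were higher and 6 lower at an unadjusted p under 0.05 (29.5% and 9.85% of all genes tested), and their median difference was 0.17, close to the 0.21 of all genes tested. Without MI replicate 2, an adjusted p of 0.05 was passed by 10 of the 19 with a higher and 7 with a lower level in MI, where 57% and 14.7% of all genes passed. Under the filter were 33 genes, of which 3 were at 0 in every mouse. Without a filter, 13 of the other 30 were higher and 1 lower at an unadjusted p under 0.05, against 20.6% and 4.77% of all genes. These shares include the genes that passed the filter.

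Phospholipases that release arachidonic acid were represented by 4 tested genes of 14, with a median difference of -0.43 on the log2(FPKM + 1) scale. The secreted enzyme Pla2g5 had a mean FPKM of 4.12 ± 0.59 (SD, n = 4) in sham and 2.34 ± 1.38 (SD, n = 3) in MI, a difference of -0.68 (limma adjusted p = 0.11), and MI replicate 2, at 3.91, lay inside the sham range. The cytosolic enzyme Pla2g4e was at 1.19 to 1.47 in the sham mice and at 0.477, 0.93 and 0.285 in the MI mice, a difference of -0.59 (limma adjusted p = 0.108) with no overlap. Pla2g12a and Pla2g6 differed by -0.27 and 0.17 (limma adjusted p = 0.288 and 0.236). The cytosolic phospholipase most often linked to prostaglandin synthesis, Pla2g4a, was under the filter, at 0.303 to 0.487 in sham and at 2.53, 0.552 and 2.08 in MI, all MI mice above all sham mice.

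Of the other prostanoid synthases, 5 of 7 genes were tested, with a median difference of -0.26. Ptges2, a second prostaglandin E synthase, was at 8.28 to 9.67 in sham and at 4.91, 7.78 and 5.99 in MI, all lower than sham, a difference of -0.46 (limma adjusted p = 0.108). Cbr1, a carbonyl reductase that can convert prostaglandin E2 to F2alpha, differed by -0.53 and overlapped (limma adjusted p = 0.238). Akr1b3, which can act as a prostaglandin F synthase, differed by -0.26 with no overlap (limma adjusted p = 0.108), whereas Ptges3, a chaperone partner that is also a prostaglandin E synthase, differed by 0.38 and overlapped (limma adjusted p = 0.163). The other branches were under the filter: Hpgds, the hematopoietic prostaglandin D synthase, was at 0.228 to 0.282 in sham and 2.8, 0.281 and 2.12 in MI, and Tbxas1, the thromboxane synthase, at 0.22 to 0.369 and 1.44, 0.342 and 0.975.

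Among other lipoxygenases and leukotriene enzymes, 3 of 10 genes were tested, with a median difference of 0.33. Lta4h, which turns leukotriene A4 into B4, was at 2.88 to 3.57 in sham and at 7.04, 3.32 and 6.21 in MI, a difference of 0.55 (limma adjusted p = 0.113). Dpep1, a dipeptidase that cuts leukotriene D4 to E4, was higher in all MI mice, at 18.5, 21.9 and 22 against 15.2 to 17.1, a difference of 0.33 (limma adjusted p = 0.108). Ggt5, which makes leukotriene D4 from C4, differed by 0.23 and overlapped (limma adjusted p = 0.175).

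Of the breakdown and transport genes, 6 of 8 were tested with estimates on both sides of 0. Hpgd, the dehydrogenase that starts the breakdown of prostaglandins, was at 4.4, 3.75, 3.01 and 2.91 in sham and at 6.93, 5.04 and 7.63 in MI, so that MI replicate 2 was also above all sham mice. Its difference was 0.73 (SE 0.17, limma adjusted p = 0.108). Ptgr1, a prostaglandin reductase, was at 1.07 to 1.31 in sham and at 4.12, 1.42 and 4.85 in MI, a difference of 0.92 (SE 0.28, limma adjusted p = 0.108). The related reductases Ptgr2 and Ptgr3 lay lower in all MI mice than in all sham mice, with differences of -0.41 and -0.32 (limma adjusted p = 0.113 and 0.108).

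Of the other receptors, only the thromboxane receptor Tbxa2r of 13 genes was tested, at 1.92 to 2.48 in sham and at 6.41, 1.84 and 5.12 in MI, a difference of 0.71 (limma adjusted p = 0.129). The prostacyclin receptor Ptgir was under the filter, at 0.512 to 0.73 in sham and at 2.37, 0.762 and 1.71 in MI, with no overlap. The prostaglandin F receptor Ptgfr was also free of overlap, at 0.301 to 0.49 in sham and at 1.05, 0.743 and 1.47 in MI. The prostaglandin D2 receptor Ptgdr was at 0 in all 7 mice.

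**Figure D5:**
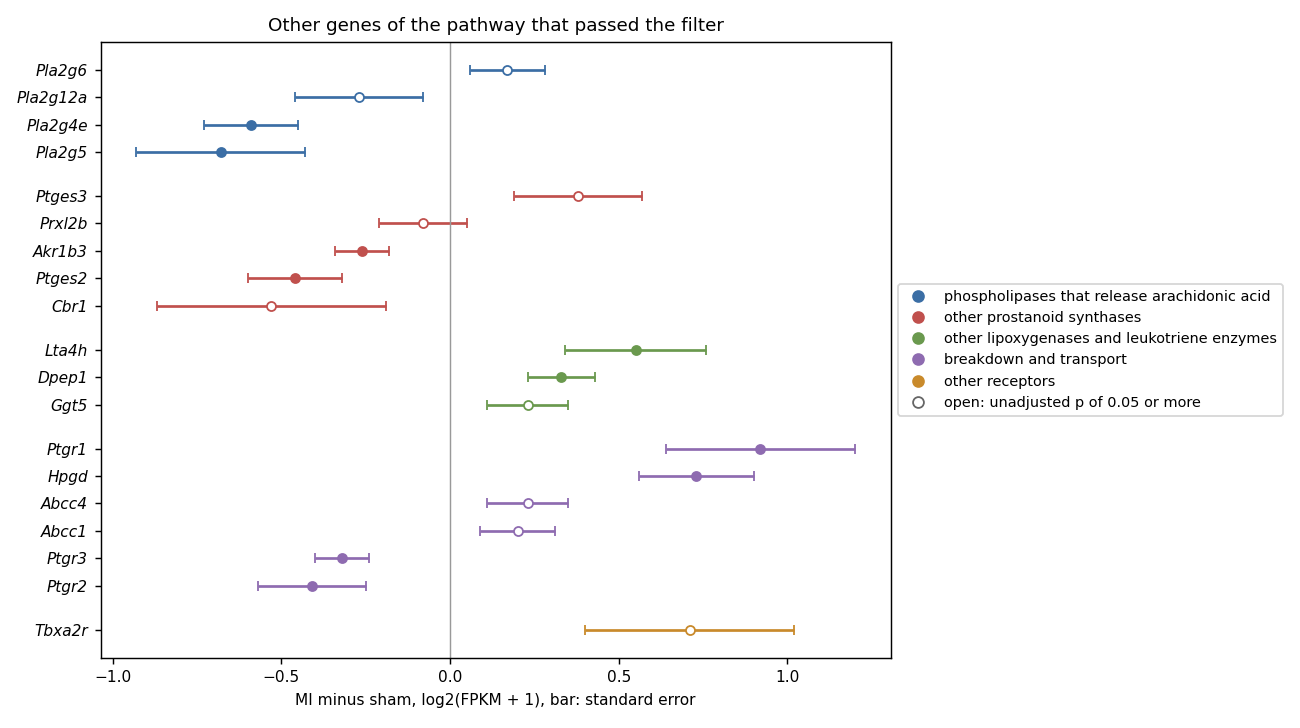
MI minus sham on the log2(FPKM + 1) scale (horizontal axis, bars are standard errors) for the 19 further genes of the pathway that passed the filter, by list; filled points have an unadjusted p under 0.05. Ptgr1 (0.92), Hpgd (0.73) and Tbxa2r (0.71) have the largest positive values and Pla2g5 (-0.68) and Pla2g4e (-0.59) the largest negative ones.

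The genes whose log2(FPKM + 1) ran most alike over the 7 mice were named for each tested gene, as a description. For Ptgis they were Bnip3l (Pearson's r = 0.9996) and Tgfb3 (0.9990), for Alox5ap Tgfbr2 (0.9998) and Ms4a6d (0.9996), for Ptgs1 Gm4705 (0.9979) and Zc3h4 (0.9970), and for Ltc4s Idh1 (0.9966) and Nfix (0.9949). Such values were common, since 3039 genes had r above 0.95 with Ptgis and 3504 with Alox5ap. Alox5 had 12 genes above 0.95, led by Mars2 (0.9862) and Entpd6 (0.9833), and Ptgds had 3, led by Kat14 (0.9658) and Zbtb44 (0.9600).

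The summed FPKM of each list of markers of other cell types was higher in MI replicates 1 and 3 than in every sham mouse, though not every marker was. In whole tissue, a change in the number of cells of a type and a change in RNA per cell cannot be told apart. Summed FPKM of 10 macrophage and monocyte markers was 160 to 207 in the sham mice and 1070, 194 and 916 in MI replicates 1 to 3. At an unadjusted p under 0.05, 8 of 8 tested markers were higher, against 29.5% of all genes tested. The sum of 8 fibroblast markers was 122 to 145 in sham and 2490, 232 and 1920 in MI, above sham in every MI mouse. Of these markers, 8 of 8 were higher against the same 29.5%. MI replicate 2 was 1.06 times the sham mean for the macrophage list and 1.76 times for the fibroblast list, and over the lists below it ran from 0 times for eosinophil and 0.778 times for neutrophil to 3.29 times for mesothelial and epicardial markers, beside 1.51 times for Ptgis and 1.18 times for Alox5ap. The macrophage sum was mostly Lyz2, at 119 in MI replicate 2 and 98.4 to 131 in sham, and single markers differed from it. In MI replicate 2, Fcgr1 (1.09 against 0.525 to 0.772 in sham), Ccr2, Ly6c2, Cd14 and Mrc1 lay above all sham mice. Lyz2, Cd68, Adgre1, Csf1r and C1qa lay inside the sham range.

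The summed markers of other blood cells were lower than the macrophage and the fibroblast sums in every mouse. Sums over different genes do not compare numbers of cells. The sum of 8 neutrophil markers was 0.3 to 1.33 in sham and 15.3, 0.485 and 7.46 in MI, and Ly6g was at 0 in every mouse. That of 6 eosinophil markers was 0.00707 to 0.119 in sham and 1.59, 0 and 0.223 in MI, and Epx was at 0 in every mouse. The sum of 8 mast cell markers was 3.01 to 4.88 in sham and 12, 4.4 and 6.82 in MI, and that of 7 platelet and megakaryocyte markers 9.62 to 11.3 and 24.4, 10.4 and 12.1. For 7 lymphocyte markers it was 0.708 to 0.914 in sham and 27.3, 1.08 and 5.46 in MI.

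The remaining lists were endothelial, at 127 to 146 in sham and 157, 119 and 172 in MI, smooth muscle and pericyte, at 218 to 260 and 348, 222 and 386, mesothelial and epicardial, at 4.16 to 9.69 and 29.4, 20.9 and 43.5, and adipocyte, at 65.9 to 76.5 and 177, 85 and 394, all in summed FPKM. These sums hid differences between markers. Of the 6 smooth muscle and pericyte markers tested, 2 were higher and 1 was lower at an unadjusted p under 0.05, against 29.5% and 9.85% of all genes tested. Tagln was at 9.21 to 10.2 in sham and 51.8, 11.8 and 50.3 in MI, and Kcnj8 at 9.41 to 11.1 and 7.76, 8.94 and 7.76. Of the 7 endothelial markers tested, 1 was higher and 0 were lower at this threshold, against the same shares. Kdr, at 18.1 to 21.5 in sham, was at 17.7, 16.5 and 16.4 in MI. The adipocyte sum in sham was nearly all Fabp4, at 65.6 to 76.3 in sham and 89.9, 84.8 and 131 in MI, whereas Cfd was at 0.177 to 0.586 and 78.1, 0.175 and 231, and Adipoq at 0 to 0.144 and 8.32, 0 and 26.8. The summed endothelial, smooth muscle and pericyte, mesothelial and epicardial, adipocyte and, with Nppa, cardiomyocyte markers were highest in MI replicate 3, and those of the other 7 lists in MI replicate 1. The part of these cell types in the differences of the 10 genes was not tested.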

How the data were processed

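Total RNA of myocardial tissue was sequenced in 4 sham-operated and 3 MI mice, grouped by their labels. The authors deposited FPKM values for 56980 genes, and 0 columns of values had no sample. Per the labels, the submitters' processing notes name CASAVA 1.8, HISAT2, SAMtools 1.3.1, edgeR and the build mm10. The annotation and the counting program are not given in the sources used here.

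Symbols were joined for 91.4% of the identifiers, with Prxl2b and Ptgr3 matched by synonym and Dpep2 uncertain because it had more than 1 identifier. Whole fragments, within 0.05 of a whole number, were recovered from the FPKM steps for 30503 of 30504 genes above 0. The implied gene length equalled the GENCODE M21 exon length for 11713 genes. For the others it was the first of 20 to 120000 bases that gave whole numbers. Genes above 0 in few mice easily meet this rule, so the share recovered does not measure accuracy. The gene lengths implied by FPKM exceeded the GENCODE M21 exon lengths for all 10 genes, by the largest factor for Ltc4s (2741 against 1014 bases), which lowers its FPKM relative to other genes.

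Values were analysed as log2(FPKM + 1), comparing MI with sham in limma 3.58.1 (lmFit, and eBayes with an intensity trend; R 4.3.3) with no covariate and Benjamini-Hochberg adjusted p-values. Genes had to reach an FPKM of 1 in 3 mice. Exact permutation tests were run in SciPy 1.17.1. P-values measure the spread between these mice. The fit was tested on simulated data. Promoter windows came from RefSeq (GRCm38.p6).

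The genes, the pathway and marker lists and the rules were chosen with earlier results of these data known. All 10 genes were named, with up to 4 tested genes of the largest difference per pathway list, the 2 genes most alike by Pearson's r, and the marker lists by their sums. Pathway genes under the filter (Pla2g4a, Hpgds, Tbxas1, Ptgir, Ptgfr and Ptgdr) were named after their values were seen. The alternatives tried are those of the closing section, together with a pseudocount of 0.1, a filter on the mean, limma without the trend and voom on recovered fragments. The fit with no filter and without MI replicate 2 was chosen after seeing the data.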

Additional observations from a re-analysis of the deposited data

Results flagged for a closer look

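In sham replicate 3, Ptges was far from the other sham mice, with an FPKM of 0.0486 against 0.171 to 0.184. The gap to the nearest mouse was 0.906 of the range of the 4 sham mice, above Dixon's critical value at 95%. It rested on 6 fragments. Of 14 sets of 4 sham values (the 10 genes and the 4 pairs of genes), 1 was past this value, where chance gives about 1 in 20. Groups of 3 mice were not tested, so MI replicate 2 was not assessed in this way.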

How the results depend on the processing

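For Ptgs1, Ptgs2, Ptges, Ptgis, Alox5, Alox5ap, Alox15, Ltc4s and Ptger4 the direction was kept under every alternative that gave a value. Ptgds turned to -0.18 with quantile normalization, -0.25 with median log-ratio scaling, -0.01 without sham replicate 2, -0.18 without MI replicate 2 (also with no filter) and -0.14 without MI replicate 3 (range -0.18 to 0.39 with 1 mouse left out), and the cause was not tested. The number of the 10 genes higher in MI at an adjusted p of 0.05 was 0 in the reported fit, 5 of 6 tested with sample weights (66.8% of all genes tested) and 8 of 10 with no filter and without MI replicate 2 (35.8% of all genes). The number lower was 0, and 1 with sample weights (20.3% of all genes). With 1 mouse left out in turn these numbers were 0 to 4 and 0 to 1, and leaving out MI replicate 2 alone gave the 4 and the 1 (57% and 14.7% of all genes). At an unadjusted p under 0.05 the higher genes numbered 2 to 4 of 6 with 1 mouse left out, beside 4 in the reported fit (29.5% of all genes). The share of all genes higher ran from 8.33% without MI replicate 3 to 58.8% without MI replicate 2. It was 16.6 to 17.5% without 1 of the sham mice. The lower genes numbered 0 to 1, beside 0 in the reported fit (9.85% of all genes). The share of all genes lower ran from 4.68% without MI replicate 3 to 15.5% without MI replicate 2. The sample weights did not converge (MI replicate 3 had a weight of 437). Genes whose groups did not overlap numbered 4 of the 10 in the reported values, 3 with TPM and 5 with median log-ratio scaling, and 4 to 9 with 1 mouse left out (9 without MI replicate 2). Over the 11431 genes tested, in either direction, the shares were 25.1, 22, 27.2 and, without MI replicate 2, 78.8%. Of the 19 pathway genes tested, 4 were higher at an unadjusted p under 0.05, against 17 of 49 with no filter (20.6% of all genes), 10 of 19 with sample weights (67.1%), 28 of 49 with no filter and without MI replicate 2 (40.8%) and 2 to 10 of 19 with 1 mouse left out (2 without MI replicate 1, beside 9.18% of all genes, and 10 without MI replicate 2, beside 58.8%). Those lower numbered 6, against 2 with TPM (4.9% of all genes). The replicate block gave 2 higher and 3 lower pathway genes (15.5 and 4.92% of all genes) at an unadjusted p under 0.05. At an adjusted p of 0.05 it gave 0 of the 6 genes tested (0% of all genes). After the mean of each group was subtracted, same-numbered mice correlated at 0.074, -0.016 and -0.08. Not every mouse correlated best with its own number by this measure. With 3 MI mice, of which 1 resembled the sham mice, these values cannot decide whether the numbers pair the mice. Within a mouse, Ptgs2 minus Ptgs1 ran from -0.24 (without MI replicate 3) to 0.28 with 1 mouse left out, and the other 3 pairs kept their sign. Precision is limited by fragments for Ptgs2, Ptges and Alox15 and by 3 MI mice of which 1 resembled the sham mice.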
